A study of Homo sapiens with 18 samples.

Results

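The chaperonin TRiC, also called CCT, is a barrel of 2 stacked rings, each built from 8 related subunits, that folds newly made proteins inside its cavity at the cost of ATP. Actins and tubulins are its best known clients, and several WD-repeat proteins also depend on it. Each ring holds 1 copy of every subunit, so the balance between the 8 transcripts is of interest beside their level.

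Described here are the 7 subunit genes whose name starts with CCT and a digit (CCT2, CCT3, CCT4, CCT5, CCT6A, CCT7 and CCT8), of 1242 genes in the authors' deposited table. That table lists genes called at an adjusted p under 0.05 between shFTO#5 and shControl, so the members were chosen by their response to shFTO#5, and their values in that comparison are a description without a test. TCP1, the remaining ring subunit, was also listed and is given for comparison. RNA was sequenced from UMRC2, an established human clear cell renal carcinoma line, grown in DMEM with 10% FBS. The libraries came from cells with the hairpin shFTO#5 against the RNA demethylase FTO (n = 2), the hairpin shFTO#2 against the same gene (n = 2) or the control hairpin shControl (n = 2). Whether the cells were pools or clones, and whether replicates were separate cultures, is not stated, so the errors and p-values may reflect technical spread only. The series also holds 12 m6A input and immunoprecipitation libraries, not analysed here.

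FTO measured 0.555 and 0.526 FPKM (reads scaled to gene length and library total) with shFTO#5, 0.882 and 0.720 FPKM with shFTO#2, and 1.99 and 2.37 FPKM with shControl. Each of the 4 knockdown libraries lay below both controls. An exact permutation test (two-sided) gave p = 0.33 with either hairpin, which is the lower limit for 2 against 2. Of 13 renal and carcinoma markers 8 were listed, 4 higher (PAX8, CA9, KRT8 and KRT18) and 4 lower with shFTO#5. In that comparison 13.0% of 9551 genes tested were called in either direction and 8.18% were called higher. Of the kidney lineage factors, PAX8 averaged 88.6 FPKM with shFTO#5 and 77.9 FPKM with shControl, and PAX2 averaged 5.03 FPKM with shFTO#5 and 7.70 FPKM with shControl. The other markers that were lower were the proximal tubule genes LRP2 (2.76 FPKM with shFTO#5 and 4.62 FPKM with shControl) and GGT1 (42.0 and 52.0 FPKM in that order), and CRYAB (421 and 531 FPKM). None of 3 leukocyte, endothelial and fibroblast markers was listed. Genes that were not called are not in the table, so an unlisted marker has no value here. The part of these shifts in the results was not tested.

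All 8 subunits are protein coding genes, on separate chromosomes except for CCT4 and CCT7 (GENCODE 29, GRCh38). CCT2 spans chr12:69585334-69601570 (plus strand), CCT3 chr1:156308968-156367873 (minus), CCT4 chr2:61868089-61888804 (minus) and CCT5 chr5:10249921-10266412 (plus). CCT6A spans chr7:56051630-56063989 (plus), CCT7 chr2:73233420-73253021 (plus), CCT8 chr21:29055805-29073797 (minus) and TCP1 chr6:159778498-159789749 (minus). To show the sequence in front of some members, the 250 bases before the RefSeq start (GRCh38.p14) of CCT2, CCT3 and CCT8 are printed. These are the 3 members with a CCAAT match, chosen by that match and not by how they changed. Capitals mark matches on either strand to any of 5 motifs. These were the unit of the heat shock element, spelled GAANNTTC, and the E-box, spelled CACGTG. The CCAAT box was searched as its own letters. The GC box of Sp-type factors was spelled GGGCGG. The letters CCGGAAG stood for the site of ETS-type factors.
CCT2, chr12:69585209-69585458, plus strand: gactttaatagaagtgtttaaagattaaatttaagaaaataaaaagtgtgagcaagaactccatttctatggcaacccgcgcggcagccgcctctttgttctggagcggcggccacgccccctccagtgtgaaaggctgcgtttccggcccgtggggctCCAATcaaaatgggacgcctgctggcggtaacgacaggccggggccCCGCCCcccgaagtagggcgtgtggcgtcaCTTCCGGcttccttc
CCT3, chr1:156338293-156338542, minus strand: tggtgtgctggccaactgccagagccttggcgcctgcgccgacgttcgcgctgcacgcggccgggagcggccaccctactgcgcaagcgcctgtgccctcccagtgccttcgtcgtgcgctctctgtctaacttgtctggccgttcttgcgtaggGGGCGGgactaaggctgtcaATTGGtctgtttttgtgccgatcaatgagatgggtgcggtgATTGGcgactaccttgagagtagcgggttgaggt
CCT8, chr21:29073649-29073898, minus strand: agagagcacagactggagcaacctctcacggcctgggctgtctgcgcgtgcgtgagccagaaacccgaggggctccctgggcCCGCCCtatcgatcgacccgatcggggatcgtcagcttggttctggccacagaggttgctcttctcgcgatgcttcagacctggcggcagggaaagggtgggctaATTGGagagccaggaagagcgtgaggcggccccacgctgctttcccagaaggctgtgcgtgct

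Of the 7 members 6 had a RefSeq window of 250 bases before to 50 after the start, CCT2 and CCT4 with 2 alternative starts each, and CCT6A had no entry. This gave 8 windows of members. The windows of CCT3, CCT5 and CCT7 lay wholly inside the GENCODE span of the gene. For these genes the sequence before the outermost annotated start was not searched. CCAAT was found in 3 of the 8, at positions -91 in CCT2, -75 and -34 in CCT3 and -63 in CCT8 (first base, counted from the start), and in 34.6% of all 35116 windows. GGGCGG was found in 5 of the 8 (both windows of CCT2 and those of CCT3, CCT7 and CCT8) and in 45.0% of all windows. GAANNTTC was found in the second CCT2 window at -89 and in TCP1 at -231, against 6.77% of all windows, and CCGGAAG in CCT2 at -15, against 10.3%. CACGTG was in 0 of the 8, against 7.26%. No marked match overlapped another. These are matches of letters and say nothing of binding in these cells.

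With shFTO#5, all 7 members were called higher than with shControl, as was TCP1, so that the whole ring was listed as raised. The share of all genes called higher in this comparison was 8.18% of 9551 tested, and since the same calls chose the members, nothing is read from their count. The rises were small and unequal, with CCT2 at 1.24-fold at the top and CCT6A at 1.09-fold at the bottom of the members. In the authors' deposited table the adjusted p of the members ran from 8.01e-14 for CCT2 to 0.00533 for CCT8, that of TCP1 was 0.0165, and the largest of any gene was 0.0499. Genes just outside the threshold are not in it. In bulk RNA, a change in the number of cells of a type and a change in RNA per cell cannot be told apart.

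The members are taken in the order of their ATP affinity, because in the yeast chaperonin the counterparts of TCP1, CCT2, CCT4 and CCT5 bind ATP more tightly than those of the other 4 subunits. CCT2, the beta subunit, measured 213 and 211 FPKM with shFTO#5 and 173 and 169 FPKM with shControl. The log2 change was 0.31 ± 0.03 (SE, limma on log2(FPKM + 1), n = 2 each). This scale and error hold for every log2 change below. CCT4, the delta subunit and the least abundant of the 8, measured 96.7 and 100.2 FPKM with shFTO#5 and 82.6 and 85.6 FPKM with shControl (0.22 ± 0.04). CCT5, the epsilon subunit, measured 191.3 and 191.1 FPKM with shFTO#5 and 165 and 163 FPKM with shControl (0.22 ± 0.03). Both shFTO#5 libraries lay above both controls for each of these genes.

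TCP1, the alpha subunit that gave the complex its name, had the smallest rise of the ring, with 138 and 136 FPKM in shFTO#5 libraries and 130.4 and 122 FPKM in shControl libraries (0.12 ± 0.04). Its controls were the most spread of all subunits in either group, at 126 ± 6.11 FPKM (SD, n = 2). The size of the rise therefore depended on which control was left out. The log2 change of TCP1 was 0.07 without shControl replicate 2 and 0.17 without shControl replicate 1.

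In the group of lower ATP affinity, CCT7, the eta subunit and the most abundant of the ring, measured 266 and 271 FPKM with shFTO#5 and 225 and 226 FPKM with shControl (0.26 ± 0.03). CCT3, the gamma subunit, measured 253 and 259 FPKM with shFTO#5 and 221 and 216 FPKM with shControl (0.23 ± 0.03). CCT8, the theta subunit, measured 123 and 121 FPKM with shFTO#5 and 111.0 and 110.0 FPKM with shControl (0.15 ± 0.03). CCT6A, the zeta subunit, for which a testis paralogue CCT6B exists, measured 222 and 218 FPKM with shFTO#5 and 205 and 197 FPKM with shControl (0.13 ± 0.03). In all 4 genes the groups did not overlap, but CCT8 and CCT6A moved by little more than the change of TCP1.

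**Figure D1:**
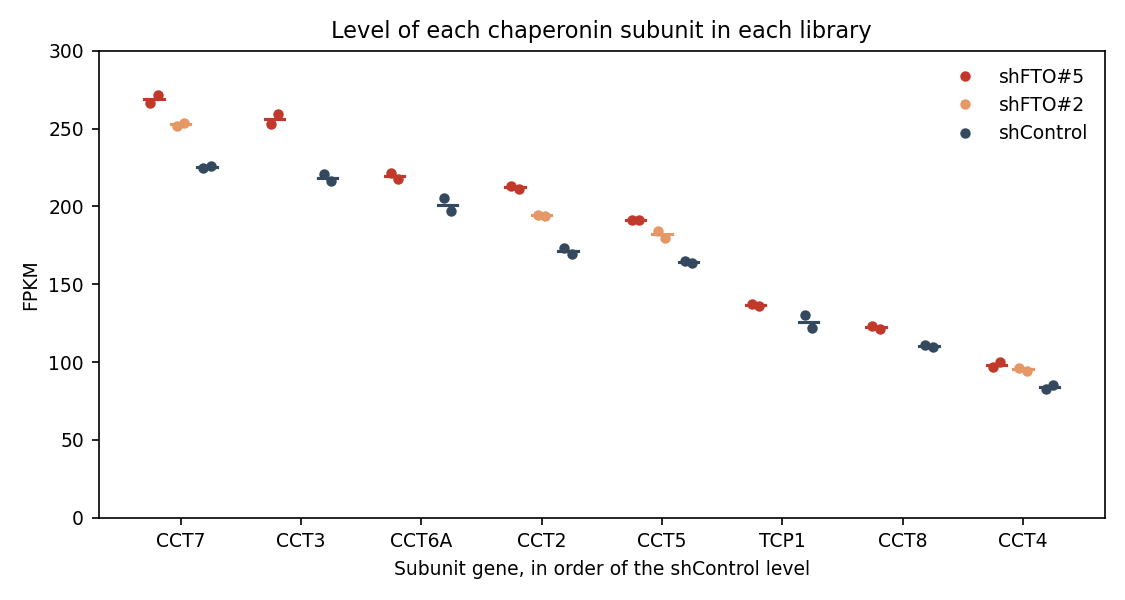
Level of each subunit in FPKM (vertical axis) in each library, subunits ordered by their shControl level from left to right. Points are libraries and short lines group means (n = 2): shFTO#5 left, shFTO#2 in the middle where a value could be assigned, shControl right. In every subunit both shFTO#5 points lie above both shControl points, and the order of the subunits is the same in both groups.

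Each member had 3505 to 11807 reads in a library, out of 14548533 to 18184675 reads, which gives a counting error of 0.92% to 1.69% per value. The SD of the log2 values between replicates was 0.001 to 0.04. Summed over the 7 members, expression was 1365 and 1372 FPKM with shFTO#5 and 1182 and 1168 FPKM with shControl. The sum was thus 1.17-fold higher, and as reads the members took 0.335% and 0.336% of the shFTO#5 libraries and 0.290% and 0.287% of the shControl libraries.

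Set among all listed genes, the size of these rises was ordinary. The median log2 change was 0.22 over the 7 members, 0.15 over all 1242 listed genes and 0.22 over the 781 listed genes that were higher. CCT2 ranked 194th from the largest rise of 1242, CCT7 276th, CCT3 350th, CCT4 361st, CCT5 384th, CCT8 621st and CCT6A 679th. The members differed more from each other than their median did from that of the other raised genes.

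**Figure D2:**
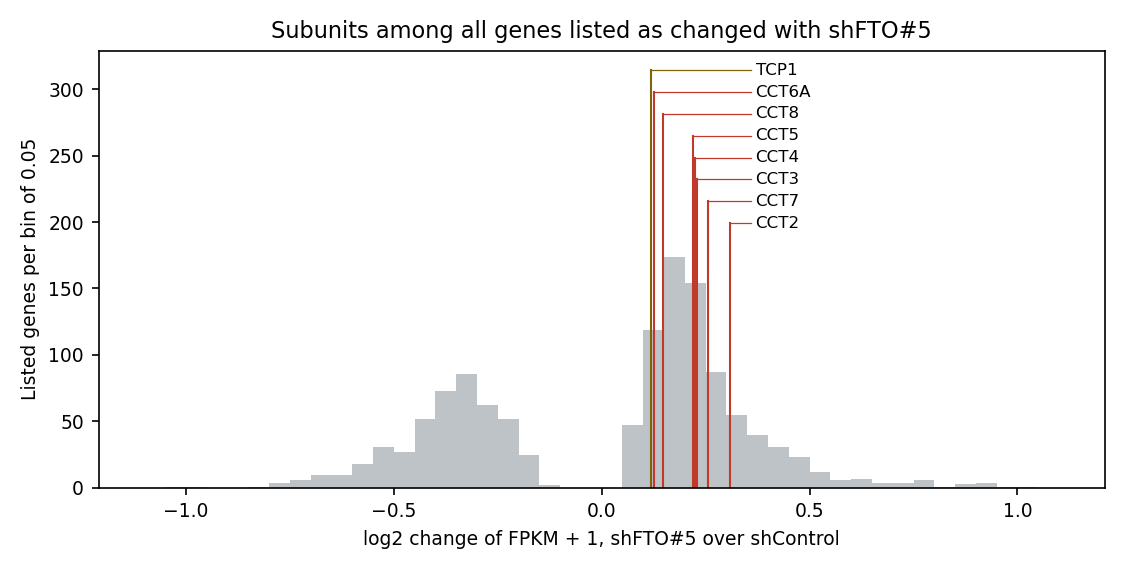
Number of listed genes (vertical axis) per bin of 0.05 in log2 change of FPKM + 1, shFTO#5 over shControl (horizontal axis). Red lines mark the 7 members and the olive line TCP1, and 2 genes beyond 1.1 on either side are not drawn. The members stand between 0.13 and 0.31, inside the main body of the raised genes.

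The deposited FPKM carry the scaling of the authors' library totals, and most listed genes were higher. Centring each library on the median of the listed genes lowered every log2 change by 0.09. All 7 members stayed higher, from 0.04 for CCT6A to 0.22 for CCT2, and after quantile normalization they ranged from 0.05 for CCT8 to 0.25 for CCT2. Under both scalings CCT2 kept a change of several standard errors (0.22 ± 0.03 and 0.25 ± 0.02). CCT6A (0.04 ± 0.03 and 0.06 ± 0.03), CCT8 (0.06 ± 0.03 and 0.05 ± 0.03) and TCP1 (0.03 ± 0.03 and 0.08 ± 0.04) came within about 2 standard errors of 0. Both scalings were computed on the listed genes alone, most of which were higher. The authors' deposited log2 changes with shFTO#5 were 0.34 for CCT2, 0.16 for CCT6A, 0.18 for CCT8 and 0.15 for TCP1.

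**Figure D3:**
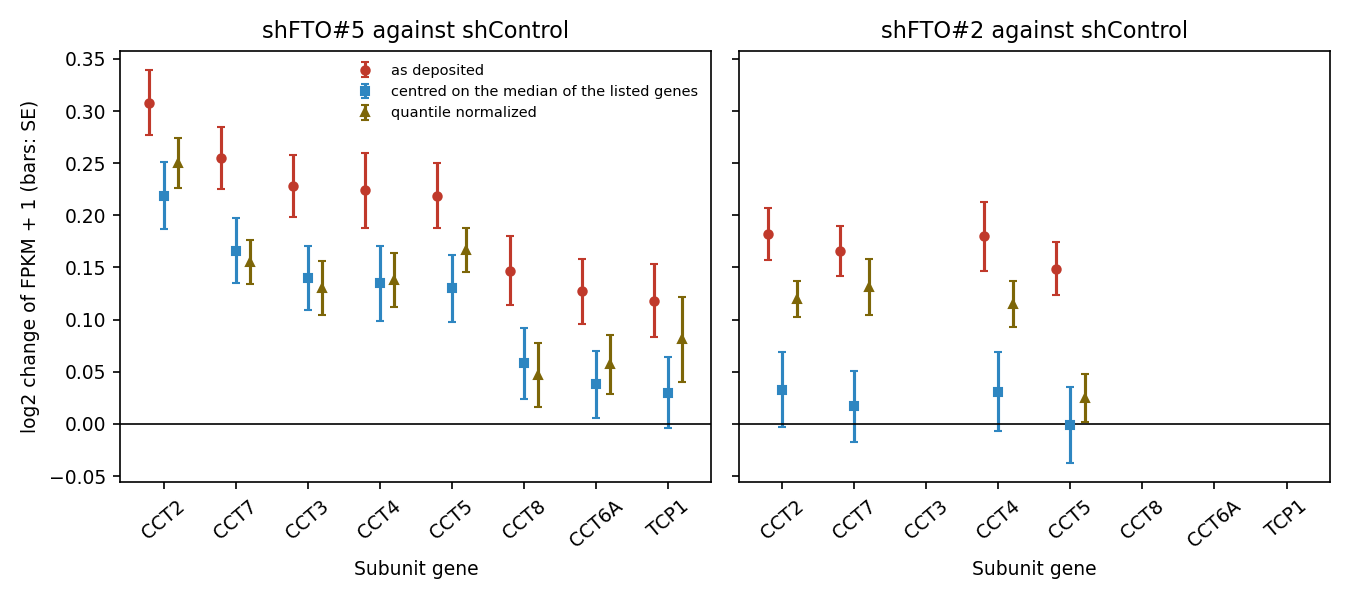
Log2 change of FPKM + 1 (vertical axis, bars SE) of each subunit, ordered by the change with shFTO#5, for shFTO#5 (left panel) and shFTO#2 (right panel) over shControl. Circles use the FPKM as deposited, squares centred libraries and triangles quantile normalized libraries. CCT2 stands highest with shFTO#5 under all 3 scalings, and centring brings the 4 shFTO#2 values to between -0.001 and 0.033.

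The make-up of the ring transcripts was nearly constant. FPKM is per length, so subunits can be set side by side, and a share is unaffected by any single factor applied to a library. On the deposited FPKM, the order of the mean levels was CCT7, CCT3, CCT6A, CCT2, CCT5, TCP1, CCT8 and CCT4 in both groups. The ranges of neighbours in that order did not overlap in either group. The most abundant member stood 2.76-fold and 2.71-fold above the least abundant in shFTO#5 libraries, and 2.72-fold and 2.64-fold in shControl libraries. The coefficient of variation among the 7 levels was 32.6% and 33.0% with shFTO#5 and 32.4% and 31.6% with shControl.

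Within that order of the deposited FPKM, shares differed by up to about 1 percentage point. CCT2 made up 15.6% and 15.4% of the summed FPKM of the 7 members with shFTO#5 and 14.6% and 14.5% with shControl, a difference of 0.92 points. CCT6A made up 16.2% and 15.9% with shFTO#5 and 17.4% and 16.9% with shControl, a difference of -1.07 points. CCT7 took 19.5% and 19.8% with shFTO#5 and 19.0% and 19.3% with shControl (0.48 points), and CCT8 took 9.04% and 8.85% with shFTO#5 and 9.39% and 9.42% with shControl (-0.46 points). In these 4 members the shares of the groups did not overlap.

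For the other 3 members the shares of the groups overlapped on the deposited FPKM. CCT3 held 18.7% ± 0.27 with shFTO#5 and 18.6% ± 0.10 with shControl, CCT4 held 7.19% ± 0.15 and 7.16% ± 0.24, and CCT5 held 14.0% ± 0.06 and 14.0% ± 0.03 in the same order of groups (SD, n = 2). Among all 8 subunits, CCT3 held 17.0% ± 0.27 with shFTO#5 and 16.8% ± 0.02 with shControl. The groups then did not overlap, but the nearest libraries were almost equal, at 16.816% with shFTO#5 and 16.806% with shControl. TCP1 held 9.16% and 9.02% with shFTO#5 and 9.93% and 9.44% with shControl (-0.60 points). After quantile normalization, the share of CCT5 was 14.3% and 14.3% with shFTO#5 and 13.9% and 14.1% with shControl, without overlap (0.27 points), and the difference of CCT7 was 0.21 points. That of CCT7 was 0.31 points without shControl replicate 1. These shares come from the comparison that chose the members, so they are given without a test.

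**Figure D4:**
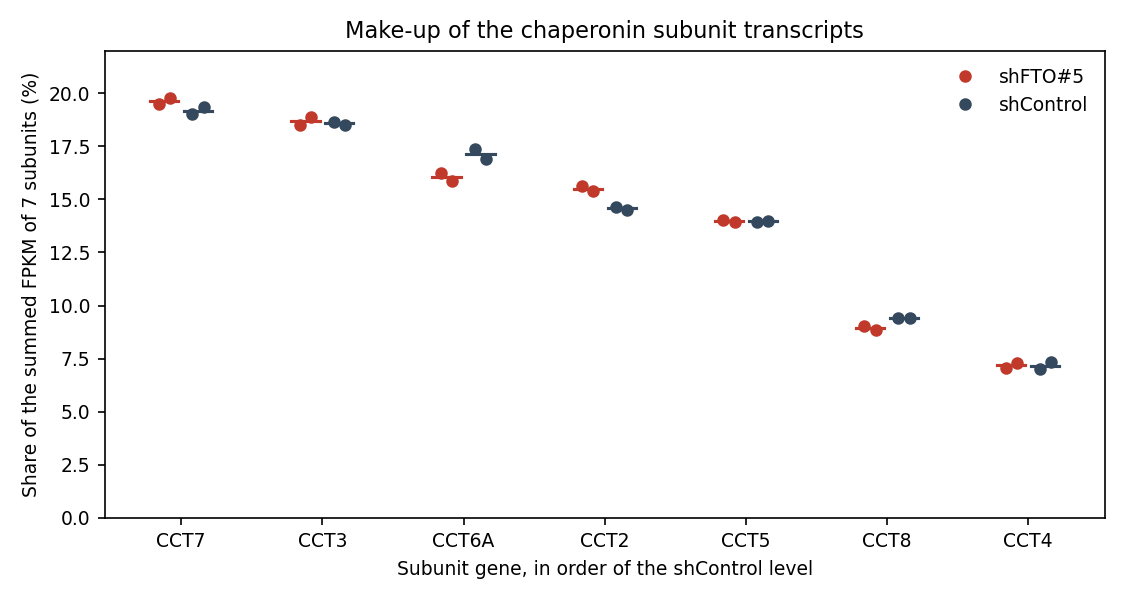
Share of each member in the summed FPKM of the 7 members, in percent (vertical axis), members ordered by their shControl level. Points are libraries and lines group means (n = 2), shFTO#5 left and shControl right. CCT2 and CCT7 stand higher, CCT6A and CCT8 lower with shFTO#5, each without overlap, and the remaining 3 members overlap.

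How far an FPKM can be compared between subunits depends on the length behind it. The deposited length equalled that of a GENCODE 29 transcript for all 8 subunits, and that of the principal transcript for all but CCT2 and CCT7. With the principal length in its place, CCT2 stood above CCT6A with shFTO#5 (228 against 219.7 FPKM, means) and below it with shControl (184 against 201 FPKM). With that length the share differed between shFTO#5 and shControl by 0.95 points for CCT2 and -1.06 points for CCT6A. The strand setting of the counting is not stated. Exons of CCT5 share 1757 bases with an antisense gene, those of CCT4 share 275 with an antisense gene and 81 with COMMD1, and those of TCP1 share 397 with ACAT2, so reads there cannot be told apart. Annotated pseudogenes carry the names of CCT6A (4), CCT4, CCT5, CCT7 and TCP1 (2 each) and CCT8 (1), and how reads shared with them were counted is not known here.

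The shFTO#2 values do not follow the order of the gene names beside them and were assigned to genes through whole read counts, level and order, which gave 561 of the 766 entries a name. CCT2, CCT4, CCT5 and CCT7 received a value, and for each of them the entry assigned passed the criteria for no other gene. CCT5 had a further entry that met the criteria, and the gene order decided between them. No entry met the criteria for CCT3, CCT6A, CCT8 or TCP1. The assigned neighbours of CCT3 and CCT6A left no entry between them, and those of CCT8 and TCP1 left 1. A value exists only where the authors had called the gene with shFTO#2, so a member without a value is not shown to be unchanged.

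The 4 members with a value were called higher with shFTO#2, against 4.17% of 10038 genes tested, while 7.63% were called in either direction. Of the 781 genes called higher with shFTO#5, 45.2% had an assigned shFTO#2 value that was also higher, so 4 of 7 members is not far from that share. Both comparisons use the same shControl libraries. CCT2 measured 195 and 194 FPKM with shFTO#2 and 173 and 169 FPKM with shControl (log2 change 0.18 ± 0.02, n = 2 each, adjusted p = 0.000165, limma). CCT4 measured 96.5 and 94.3 FPKM with shFTO#2 and 82.6 and 85.6 FPKM with shControl (0.18 ± 0.03, adjusted p = 0.000726, limma). For both genes the knockdown libraries lay above both controls. The direction of the mean was itself a criterion of the assignment, so it is no separate result.

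CCT5 measured 184 and 180.0 FPKM with shFTO#2 and 165 and 163 FPKM with shControl (0.15 ± 0.03, adjusted p = 0.000486, limma). CCT7 measured 252 and 254 FPKM with shFTO#2 and 225 and 226 FPKM with shControl (0.17 ± 0.02, adjusted p = 0.000213, limma). Again the groups did not overlap, and the share of all assigned genes without overlap was not counted. The test covered the 561 assigned genes, all of which the authors had called with shFTO#5 and also with shFTO#2. Of these 353 were higher, and 353 (62.9%) passed it as higher. Its p-values are therefore no independent evidence of a rise.

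Among the assigned genes that were higher, the shFTO#2 rises of the members were on the small side. The median log2 change was 0.17 over the 4 members, 0.17 over all 561 genes and 0.27 over the 353 that were higher, and the members ranked 263rd (CCT2) to 310th (CCT5) from the largest rise. Centring lowered every shFTO#2 change by 0.15 and left CCT2 at 0.03 ± 0.04, CCT4 at 0.03 ± 0.04, CCT7 at 0.02 ± 0.03 and CCT5 at -0.001 ± 0.036, none of which passed limma's threshold (adjusted p from 0.426 to 0.987). After quantile normalization CCT5 alone of the 4 did not pass (0.03 ± 0.02, adjusted p = 0.346, limma).

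Side by side, the levels of the 4 members were higher with shFTO#5 than with shFTO#2. The means were 212 FPKM with shFTO#5 and 194 FPKM with shFTO#2 for CCT2, 98.4 and 95.4 FPKM for CCT4, 191 and 182 FPKM for CCT5, and 269 and 253 FPKM for CCT7 in the same order. The ranges of the hairpins did not overlap in any of the 4. The share of all assigned genes without overlap between the hairpins was not counted, so nothing is read from this count. For CCT4 the nearest libraries were almost equal, at 96.7 FPKM with shFTO#5 and 96.5 FPKM with shFTO#2. On the FPKM as deposited, the differences were 0.04 (CCT4) to 0.13 (CCT2) in log2. Because shFTO#5 calls chose the genes, these differences were not tested. Among the 4 members, CCT5 held 25.3% and 24.9% of their summed FPKM with shFTO#2 and 25.6% and 25.4% with shControl (two-sided exact permutation p = 0.33, the smallest possible). CCT2 held 26.8% and 26.9% with shFTO#2 and 26.8% and 26.3% with shControl (0.27 points), and these overlapped. With shFTO#5 CCT2 held 27.8% and 27.3% of the same sum (0.97 points), without overlap with shControl. CCT5 held 24.9% and 24.7% of it with shFTO#5 (-0.655 points), also without overlap. CCT4 (-0.279 points) and CCT7 (-0.034 points) overlapped with shControl there, so the share differences depended on which subunits were summed. For shFTO#2 the exact permutation p was 0.667 for the share of CCT2 and 1.0 for those of CCT4 and CCT7.

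Of the genes that work beside the chaperonin, few were listed. Of 13 prefoldin, prefoldin-like and phosducin-like co-chaperones, which hand clients to the ring or regulate it, only PFDN2, a prefoldin subunit, was listed, with 132 and 126 FPKM in shFTO#5 libraries and 108 and 115 FPKM in shControl libraries (0.21 ± 0.04). Of 6 tubulin folding cofactors, which act after the chaperonin, 0 were listed. Of 7 R2TP and chaperonin-like genes only RUVBL1, an ATPase of the R2TP complex, was listed (42.2 FPKM with shFTO#5 and 35.4 with shControl, 0.25 ± 0.04). For these lists, unlike the members, listing was not the criterion of choice, and in the same comparison 13.0% of 9551 genes tested were called in either direction.

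Of 17 actin and tubulin genes, the main clients, 5 were listed and all 5 were called higher, with a median log2 change of 0.13. TUBA1C, an alpha tubulin, averaged 294 FPKM with shFTO#5 and 232 FPKM with shControl (0.34 ± 0.03), and TUBB4B, a beta tubulin, 480.5 and 427 FPKM (0.17 ± 0.03). The abundant ACTG1, a cytoplasmic actin (0.08 ± 0.03), and TUBB, a beta tubulin (0.06 ± 0.03), had the smallest changes and were at -0.01 and -0.03 after centring, so 3 of 5 were then higher. After quantile normalization they were at 0.03 and 0.05, and 5 of 5 were higher. Tubulin genes are close paralogues, and how their shared reads were counted is not known here.

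Of 19 WD-repeat and other clients 4 were listed, 3 higher and 1 lower. WDR5, a WD-repeat scaffold of histone methyltransferases, averaged 61.3 FPKM with shFTO#5 and 36.1 FPKM with shControl (0.75 ± 0.04), the largest change among the listed genes of these lists. PLK1, a mitotic kinase, averaged 47.0 and 36.1 FPKM (0.37 ± 0.04) and CDC20, the anaphase activator, 449 and 379 FPKM (0.24 ± 0.03), shFTO#5 before shControl. MLST8, a WD-repeat subunit of the mTOR complexes, averaged 48.3 FPKM with shFTO#5 and 58.4 FPKM with shControl (-0.27 ± 0.04). With shFTO#2 these genes had 0.69 ± 0.03 for WDR5, 0.22 ± 0.04 for PLK1, 0.21 ± 0.03 for CDC20 and -0.26 ± 0.05 for MLST8.

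The mitochondrial chaperonin, a separate folding machine of the matrix, was listed with both of its genes. HSPD1, its ring subunit, averaged 635 FPKM with shFTO#5 and 612 FPKM with shControl (0.05 ± 0.03) and was at -0.04 after centring and -0.02 after quantile normalization. HSPE1, its lid, averaged 70.9 FPKM with shFTO#5 and 59.8 FPKM with shControl (0.24 ± 0.04, and 0.16 after centring).

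The 5 genes outside the members with the pattern most like their mean across the 4 shFTO#5 and shControl libraries were SERPINH1, a collagen chaperone, NCAPD2, a condensin subunit, ODC1, ornithine decarboxylase, PIM3, a serine/threonine kinase, and PLIN2, a lipid droplet protein. Likeness was the root mean square distance between deviations of log2(FPKM + 1) from each gene's own mean, and it ran from 0.0037 for SERPINH1 to 0.0093 for PLIN2. Their log2 changes were 0.22 to 0.23. The members' own distances from their mean ran from 0.0036 for CCT5 to 0.0486 for CCT6A, that of TCP1 was 0.0579, and 400 of 1235 other listed genes lay nearer than CCT6A. All these genes were selected for the same contrast, and nothing about shared control follows from their likeness.

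FTO removes methyl groups from RNA, so copies of GGACT, a core sequence of the m6A consensus, were counted. The members' GENCODE 29 principal transcripts held from 0 copies in CCT4 to 3 in CCT5 and CCT6A, which is 0 to 1.1 per kilobase, against a median of 0.949 over 1214 other listed genes. Of the 7 members 5 lay below that median and 2 above. This counts letters and not methylated sites.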

How the data were processed

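Of 18 samples, the 6 RNA-seq libraries (2 per group, grouped by title) were used. The series' design text numbers the FTO hairpins 1 and 2, whereas the sample labels number them 2 and 5. The sample labels were followed, and how the numberings correspond is not stated. Per the file headers, the authors deposited a table of genes with their length, FPKM, log2 fold change and p-value (raw and adjusted). Trim Galore 0.4.2, STAR, RSEM and hg38 stand in the submitters' processing notes, without role or order. Compared with the FPKM, the deposited log2 values run control over knockdown, and they were turned to knockdown over control. The file headers number the knockdowns 1 and 2, and these were tied to shFTO#2 (number 1, which fills the same lines as its FPKM) and shFTO#5 (number 2, whose log2 values match its FPKM line by line). The numbers of genes tested (9551 and 10038) were recovered from the deposited p-values under Benjamini-Hochberg adjustment.

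Multiplied by length, the FPKM of the shControl and shFTO#5 libraries gave whole reads in 1242 of 1242 genes (tolerance 1e-05) and with them the library totals. The shFTO#2 entries were assigned to the listed gene whose length made both libraries whole, whose control level gave the deposited log2 change in sign and size (within 0.15, or that change's own size where larger) and that kept the longest common gene order. Limma 3.58.1 in R 4.3.3 with an intensity trend was fitted on log2(FPKM + 1), keeping genes that reached 1 FPKM in 2 or more libraries, on shFTO#5 and shControl over 1242 genes and on all 3 groups over 561 genes. The pseudocount understates changes of genes with low FPKM such as FTO. Both steps were run on simulated data. For the assignment, simulated entries of listed genes followed the gene order and control levels by construction. That run therefore could not test whether the deposited entries meet these criteria. Threshold: adjusted p under 0.05. The counting errors cover counting only.

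The members, gene lists and motifs were chosen with earlier results of these data known. Named were all members, FTO, of each list all listed genes up to 4 or otherwise the 2 largest and 2 smallest changes, and the 5 genes most like the members. The GGACT count was added after seeing the data. Alternatives were another pseudocount, no filter, centring, quantile normalization, no trend, a replicate block, and each library left out.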

Additional observations from a re-analysis of the deposited data

How the results depend on the processing

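All 7 members stayed higher with shFTO#5 in direction under 10 alternatives (another pseudocount, no filter, 2 scalings, no trend, replicate block, each of 4 libraries left out), with 7 as lowest and highest count when a library was left out. By limma's threshold, no test here since the same contrast chose the members, 5 of 7 passed after centring and 5 of 7 after quantile normalization (not CCT6A and CCT8). With shFTO#2, all 4 members with a value passed limma's threshold under every alternative except the scalings: 0 passed after centring, where CCT5 turned to -0.001, and 3 after quantile normalization. The count was 4 for each library left out. Only genes that the authors had called with shFTO#2 have a value, so these passes are no independent evidence. The share of all listed genes that passed under each scaling is not given for either hairpin. Nothing about the members is therefore read from these counts. The cause of the lower counts was not tested, but by construction centring subtracts the median of genes that were mostly higher. Of the 7 shares, 4 were higher with shFTO#5, and 3 to 5 when a library was left out. After quantile normalization 3 were higher, with CCT5 at 0.27 points (main value -0.007), CCT7 at 0.21 and CCT2 at 1.17. FTO stayed lower in every fit run, at -1.06 to -1.03 with shFTO#5 and -0.89 to -0.76 with shFTO#2 when a knockdown library was left out. Without either shControl library FTO fell under the filter and could not be fitted.

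The replicate block left the log2 changes as they were (7 members higher, 4 passing with shFTO#2; FTO -1.04 and -0.82) and changed no call. The labels do not say that a number marks a shared batch, and the deviations of same-numbered libraries had a correlation of 0.09 for shFTO#5 with shControl and 0.22 for shFTO#2 with shControl. The 8-subunit shares and the principal transcript lengths were alternatives chosen after seeing the data. Depth limits the members little. With 2 libraries a group, exact tests cannot go below p = 0.33, and only called genes have values.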
